A study of Mus musculus with 8 samples.

Results

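Interferon response genes were measured in FoxP3+ regulatory T cells (Tregs), a CD4 lineage that holds immune responses in check. The set was a list of 39 symbols, and 33 of them were measured, of 19937 genes on the arrays. A gene was measured where the platform annotation gives a probe set (the group of array probes summarised as 1 value) that symbol and no other. Genes with several such probe sets were represented by the one of highest mean over all 8 arrays. Isg15, Gbp2, Gbp6, Igtp, Irgm2 and Ifi44 had no such probe set and were not analysed here. The set was split into a type I arm of 28 genes, 26 measured, and an IFN-gamma arm of 11 genes, 7 measured, and the assignment is by textbook knowledge, since many of these genes answer to both kinds of interferon.

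The FoxP3+ Tregs were sorted from mice of the wild type (WT) or of the genotype given as Bcl6-/- or Bcl6 knock-out (KO). BCL6 silences target genes through a zinc finger domain that binds DNA and a BTB domain that recruits corepressors. Cells of both genotypes were stimulated with antibodies to CD3 and CD28 for 16 h before RNA was taken, and no unstimulated cells and no interferon treatment appear in the labels. The array titles number the preparations of each genotype 1 and 2 and letter the arrays within a preparation A and B, which makes 4 arrays per genotype. The design text speaks of 2 WT and 2 KO without saying of what, and the labels give no age, strain, number of animals or part of Bcl6 removed, and leave unsaid whether a number or a letter stands for a mouse of its own. The p-values therefore rest on the spread of these arrays alone, which may be technical. In bulk RNA, fewer cells of a type and less RNA per cell cannot be told apart.

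Bcl6 itself was 8.72 ± 0.24 log2 (SD, n = 4) on the KO-labelled arrays against 8.13 ± 0.25 (SD, n = 4) on WT, and the groups did not overlap. The deleted part of the gene is not given in the sources used here, so the Bcl6 level is no check of the genotype. The SD of all log2 values was 1.84 to 1.87 in the KO 1 arrays, 1.61 to 1.65 in KO 2 and 1.56 to 1.70 in WT. WT 1A lay as near to WT 2B, an array of the other preparation, as KO 2A did to KO 2B (0.17 log2, root mean square over genes). Averaged over 3 Y-linked genes (Uty, Eif2s3y and Kdm5d), the log2 level ran from 4.62 to 4.80 with the KO label and from 6.94 to 8.30 in WT, a difference that runs along with genotype; its part in the results was not tested. The 6 T cell and Treg markers were measured at 8.96 to 12.09 log2, Foxp3 among them, and their summed level was 66.61 to 66.97 in KO 1, 62.2 to 62.6 in KO 2 and 58.2 to 62.8 in WT. Their KO 1 differences from WT were uneven, from 0.42 (Cd3e) to 2.21 (Il2ra), with Ctla4 at 1.30 and Foxp3 at 1.11. Foxp3, Il2ra and Ctla4 had all KO arrays above all WT arrays, as 6.67% of all genes did. The summed log2 level of the listed markers of B cells, plasmacytoid dendritic cells, dendritic cells, monocytes and macrophages, neutrophils, NK cells and CD8 T cells lay above the WT range in 0 of 7 lists, in KO 1 as in KO 2. It lay below that range for 4 lists in KO 1 (plasmacytoid dendritic, dendritic, NK and CD8 T cells) and for 1 in KO 2 (plasmacytoid dendritic cells). The CD8 T cell markers went opposite ways in KO 1, Cd8a at -0.66 and Cd8b1 at 0.15. In KO 2 the plasmacytoid dendritic markers Pacsin1, Ccr9, Spib and Siglech were at -0.34, -0.10, -0.03 and -0.01. A mean under log2 7 held for 3 of 4 plasmacytoid dendritic, 5 of 5 dendritic, 4 of 4 NK and 0 of 2 CD8 T cell markers. At that level the median KO 1 difference of all genes from WT was -0.33. The 6 T cell and Treg markers were at log2 8 or more, where it was 0.71. The part of this level trend in the sums was not tested. Of the 30 markers in the 7 lists 1, the monocyte gene Lyz2, had all KO arrays above all WT arrays. Lyz2 differed from the WT mean by 0.45 in KO 1 and 0.25 in KO 2. The B cell marker Cd79b had both KO 1 arrays above all WT arrays, as 34% of all genes did. Cd79b differed by 0.50 in KO 1 and 0.16 in KO 2, where its arrays overlapped WT. The B cell markers Cd79a, Ms4a1 and Pax5 were at -0.44, -0.08 and -0.57 in KO 1. The part of Lyz2 and Cd79b in the results was not tested.

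Cells sense type I interferons, the alpha and beta forms, through a receptor of the chains IFNAR1 and IFNAR2, which signals through the kinases JAK1 and TYK2. The complex ISGF3, which holds STAT2 and IRF9, then binds the interferon-stimulated response element (ISRE) of antiviral genes such as those of the IFIT, MX and OAS families. IFN-gamma, made by T and NK cells, acts through IFNGR1, IFNGR2, JAK1 and JAK2 and, by way of the gamma-activated site (GAS) in promoters, induces IRF1, guanylate-binding proteins, immunity-related GTPases and the peptide transporter of MHC class I. Tregs carry both receptors, and IFN-gamma is known to induce the T-box factor T-bet in them.

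Promoter stretches of 6 members with large differences or a role as a factor are shown because they carry letters like those of the ISRE or the GAS. They come from RefSeq promoters of build GRCm38.p6, 250 bases before to 50 after a start site, and are printed 5′ to 3′ on the gene's strand, from 20 bases before the first match to 20 after the last, as far as the window before the start site goes. Capitals mark matches, on either strand, to the ISRE-like letters GAAA, then NN, then GAAA (N is any base), or the GAS-like letters TTCNNNGAA, which reads the same on both strands; adjoining or overlapping matches merge into one run of capitals. The stretches lie at chr10:128270256-128270305, plus strand (Stat2), chr7:78913331-78913379, plus strand (Isg20), chr11:53769904-53769952, plus strand (Irf1), chr3:142559979-142560034, plus strand (Gbp3), chr3:142496684-142496910, plus strand (Gbp5) and chr11:48871421-48871470, minus strand (Irgm1).
Stat2: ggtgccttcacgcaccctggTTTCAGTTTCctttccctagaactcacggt
Isg20: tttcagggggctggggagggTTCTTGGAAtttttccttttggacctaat
Irf1: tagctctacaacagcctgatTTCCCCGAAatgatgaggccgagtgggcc
Gbp3: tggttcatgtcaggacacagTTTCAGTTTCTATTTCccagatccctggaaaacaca
Gbp5: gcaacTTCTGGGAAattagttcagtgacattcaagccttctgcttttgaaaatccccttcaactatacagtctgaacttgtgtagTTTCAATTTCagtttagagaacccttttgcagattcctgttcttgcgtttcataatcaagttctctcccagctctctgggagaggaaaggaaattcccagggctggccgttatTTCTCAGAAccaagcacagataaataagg
Irgm1: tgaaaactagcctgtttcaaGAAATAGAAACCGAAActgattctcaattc

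Gbp3 and Irgm1 each held 2 overlapping ISRE-like matches, the nearest starting 39 and 24 bases before the start site. Gbp5 held 1 ISRE-like and 2 GAS-like matches, Irf1 1 GAS-like match starting 90 bases before the start site, Isg20 1 GAS-like match and Stat2 1 ISRE-like match. Of the 33 measured members 22 had a promoter in the table, and 12 of these (54.5%) held the ISRE-like letters, 9 of 17 in the type I arm and 3 of 5 in the IFN-gamma arm, against 3.99% of 27025 genes and 3.44% of 32851 promoters. The GAS-like letters were in 6 of 22 members (27.3%) against 9.55% of genes and 8.3% of promoters, and the stricter letters TTCCNGGAA in 2 of 22 (9.09%) against 1.35% and 1.15%. Such a match is a description of the sequence, and members that held ISRE-like letters lay on both sides of WT as deposited. Ifit1, Ifit3 and Rsad2 differed in KO 1 by -0.11, -0.35 and -0.23 log2 from WT, while Gbp3 differed by 2.29. These 3 genes had means of 5.77, 5.96 and 6.42, and under log2 7 the KO 1 median of all genes was -0.33. After quantile normalization, median centring and scaling to 1 SD, Ifit1 was at 0.19, 0.13 and 0.09. Rsad2 was at 0.10, 0.02 and -0.10, and Ifit3 at -0.05, -0.11 and -0.16.

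Whether interferon response genes differ in Tregs without Bcl6 is the question of the KO minus WT comparison. In KO preparation 1, 6 of the 7 IFN-gamma genes stood far above WT, by 1.51 to 2.29 log2. In the type I arm the signalling factors, sensors and PARP genes stood above WT by 0.12 to 1.63, and the OAS and MX genes did not stand above WT as deposited. In KO preparation 2 those 6 genes were above the WT mean by a smaller amount, and Nlrc5 was level with it. The median log2 difference from WT was 1.84 in KO 1 and 0.34 in KO 2 for the 7 IFN-gamma genes, 0.19 and 0.14 for the 26 type I genes, and -0.13 and 0.02 over all genes. Both preparations are set against the same WT arrays, so these 2 sets of differences are not independent.

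Over both preparations together, the median difference was 1.07 for the IFN-gamma arm, 0.18 for the type I arm and -0.06 over all genes. With each array's SD as a covariate the IFN-gamma median was 0.31. With limma (a linear model with moderated variance, the preparation as a random block, Benjamini-Hochberg adjustment over 19937 genes and a threshold of 0.05), 0 of the 33 members passed, where 0.135% of all genes did (0.12% higher and 0.015% lower); the smallest adjusted p was 0.384. At an unadjusted p under 0.05, 13 members were higher and 0 lower, 6 of 7 in the IFN-gamma arm and 7 of 26 in the type I arm, against 5.65% of all genes higher and 0.542% lower. For 9 members the lowest KO value exceeded the highest WT value, against 6.67% of all genes, and for 0 members the reverse held, against 2.11%. Without preparation KO 1 limma called 13 members higher, against 5.64% of all genes, in a fit whose within-preparation correlation was negative (-0.63). With no random block, a setting chosen after seeing the data, it called 0 without KO 1, where 0.642% of all genes were higher and 0.0803% lower. Without KO 2 and with no random block it called 18 higher and 6 lower, where 30.1% of all genes were higher and 37% lower. The fit with preparation number as a replicate block called 7 higher (Gbp3, Irgm1, Gbp5, Parp9, Ddx58, Usp18 and Isg20), where 3.11% of all genes were higher. The labels do not say whether a shared number pairs KO with WT arrays. The fit with each array's SD as a covariate called 5 higher (Gbp3, Irgm1, Parp9, Ddx58 and Isg20), against 3.31% of all genes.

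**Figure D1:**
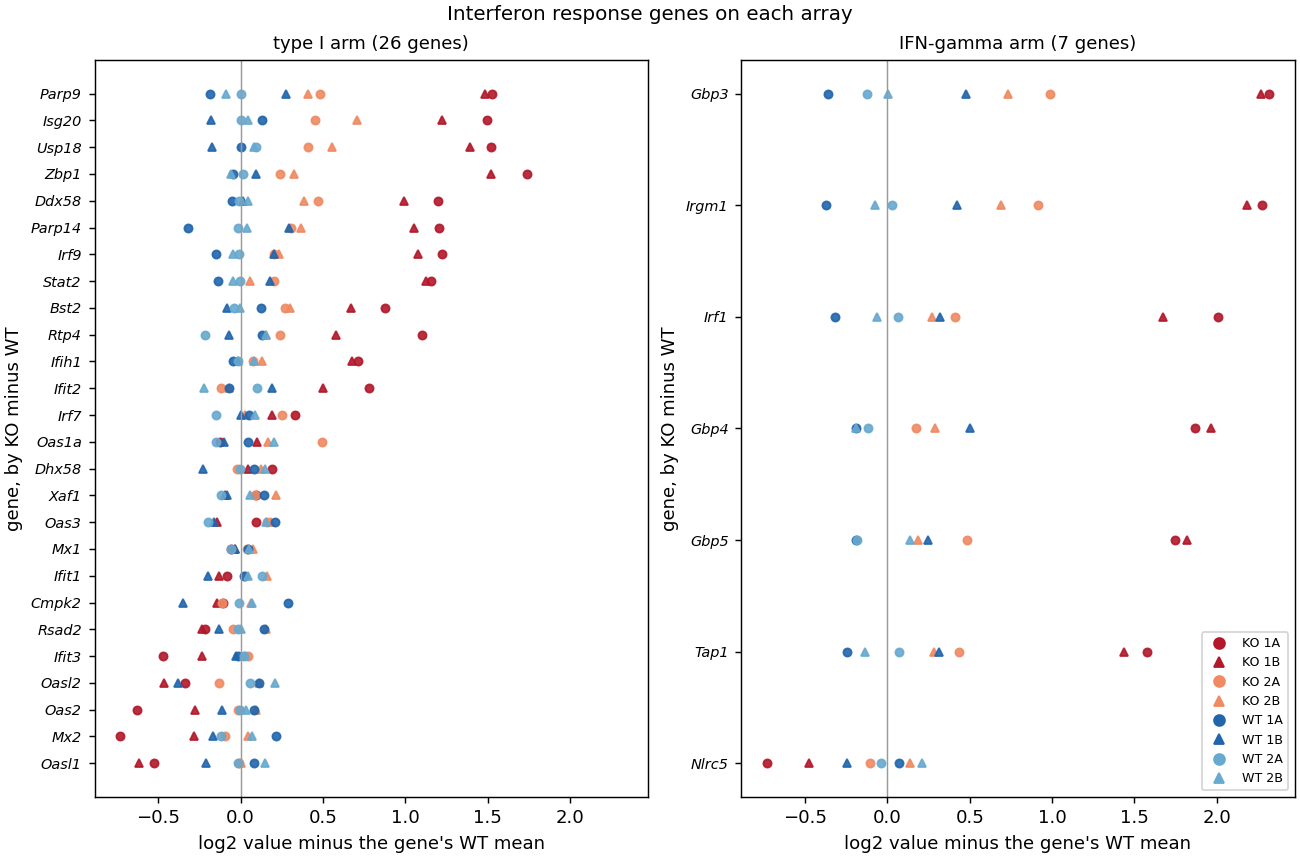
Each point is 1 array, with the horizontal axis giving its log2 value minus the mean of the gene's 4 WT arrays and the vertical axis the 33 measured genes ordered by KO minus WT, the type I arm on the left and the IFN-gamma arm on the right. Both KO 1 arrays lie above all WT arrays for 6 of 7 IFN-gamma genes and 13 of 26 type I genes, against 34% of all genes, while the lowest genes of the left panel have KO 1 arrays below the WT mean.

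Guanylate-binding proteins, large GTPases that attack vacuoles and membranes of intracellular pathogens, were all 3 above WT in both KO preparations, Gbp3 with the largest KO minus WT difference of the 33 members. Gbp3 (probe set 10496580) had log2 values of 10.61 and 10.56 in KO 1, 9.28 and 9.02 in KO 2, and 7.93, 8.77, 8.16 and 8.30 in WT. All 4 KO-labelled arrays were above the 4 WT arrays, but KO 2 lay closer to WT than to KO 1. The group levels were 9.87 ± 0.83 and 8.29 ± 0.35 (SD, n = 4 each), the log2 difference 1.58 (SE 0.44, limma adjusted p = 0.384), and the fold over WT 4.90 in KO 1 and 1.82 in KO 2. Gbp4 (10531987) had 9.77 and 9.87 in KO 1, 8.08 and 8.20 in KO 2, and 7.72, 8.41, 7.79 and 7.72 in WT. Its KO 2 arrays were below WT 1B, the one WT array that stood apart, and the log2 difference was 1.07 (SE 0.45). Gbp5 (10496539), which helps to assemble inflammasomes, had 7.94 and 8.01 in KO 1, 6.67 and 6.37 in KO 2, and 5.99, 6.43, 6.0 and 6.32 in WT. KO 2B was below WT 1B, so the groups overlapped, and the difference was 1.06 (SE 0.38). Gbp3 and Gbp5 are neighbours in 1 gene cluster and near copies of other family members, so signal may be shared between them.

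Irgm1 (10385500), an immunity-related GTPase that controls autophagy and the activity of its relatives, followed Gbp3. It measured 10.34 and 10.25 in KO 1, 8.98 and 8.76 in KO 2, and 7.69, 8.49, 8.09 and 7.99 in WT. Its lowest KO value exceeded its highest WT value, with a log2 difference of 1.51 (SE 0.43, limma adjusted p = 0.402), 2.23 in KO 1 and 0.80 in KO 2. Irf1 (10376060), the factor that IFN-gamma induces directly and that drives many later genes, had 10.42 and 10.09 in KO 1, 8.83 and 8.69 in KO 2, and 8.10, 8.74, 8.48 and 8.35 in WT. Both KO 1 arrays were over 1 log2 above the highest WT array, while KO 2B was below WT 1B. The Irf1 difference was 1.09 (SE 0.43). A further probe set of Irf1, of lower mean, differed by -0.31 in KO 1 and -0.03 in KO 2. Tap1 (10444244), a chain of the transporter that carries peptides to MHC class I, had 10.24 and 10.10 in KO 1, 9.10 and 8.95 in KO 2, and 8.42, 8.98, 8.73 and 8.53 in WT. It showed the same order of groups, with a KO 1 difference of 1.51 and a KO 2 difference of 0.36, and with KO 2B below WT 1B.

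Nlrc5, the transactivator of MHC class I genes, depended on the probe set. The set of highest mean (10574100) had 10.05 and 10.30 in KO 1, 10.67 and 10.91 in KO 2, and 10.85, 10.54, 10.74 and 10.99 in WT. Both KO 1 arrays were below all WT arrays there, with a difference of -0.60 log2 from the WT mean, and KO 2 differed by 0.02. Nlrc5 had 19 probe sets, and in the other 18 KO 1 was above WT. Over all 19 the median difference from WT was 1.05 in KO 1 and 0.20 in KO 2, with ranges of -0.60 to 1.85 and -0.08 to 0.42. With the mean of its probe sets the KO minus WT difference of Nlrc5 was 0.55 in place of -0.29.

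**Figure D2:**
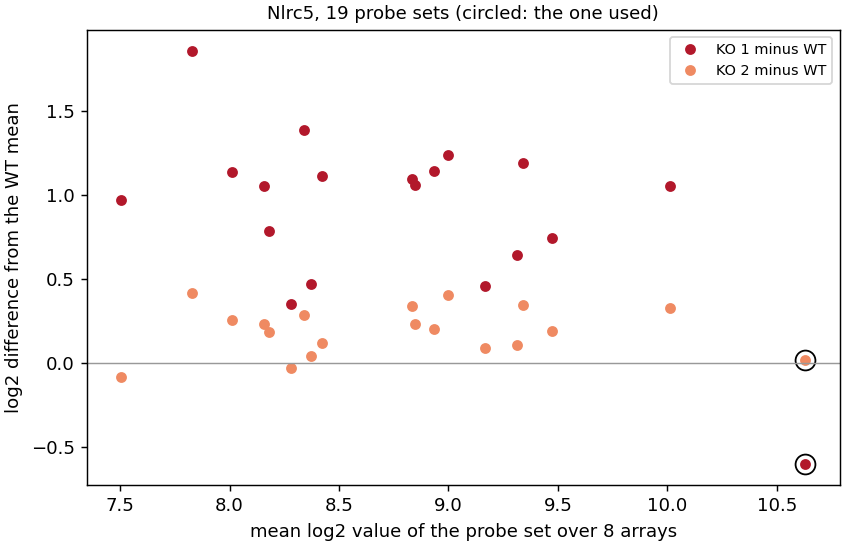
Each point is 1 of the 19 Nlrc5 probe sets, with its mean log2 value over 8 arrays on the horizontal axis and its log2 difference from the WT mean on the vertical axis, for KO 1 (dark red) and KO 2 (orange); black circles mark the probe set of highest mean. That probe set is the one with KO 1 below WT, at -0.60.

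Factors of the type I pathway differed from WT by less than 6 of the 7 IFN-gamma genes. Stat2 (10367224), the STAT that only interferon receptors of types I and III use, had log2 values of 9.28 and 9.24 in KO 1, 8.32 and 8.17 in KO 2, and 7.98, 8.30, 8.12 and 8.07 in WT. Irf9 (10415319), the DNA-binding partner in ISGF3, had 9.29 and 9.14 in KO 1, 8.27 and 8.30 in KO 2, and 7.91, 8.27, 8.06 and 8.02 in WT. Both genes were about as far above WT in KO 1, by 1.14 and 1.15, and in KO 2 the difference was 0.13 and 0.22, and WT 1B lay above KO 2B for Stat2 and just above KO 2A for Irf9. Irf7 (10569102), which amplifies the response by driving interferon alpha genes, had 7.76 and 7.61 in KO 1, 7.68 and 7.45 in KO 2, and 7.48, 7.43, 7.28 and 7.51 in WT. It differed by only 0.20 (SE 0.22), and its KO 2 arrays lay on both sides of the highest WT array.

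Sensors and a regulator of the response varied among themselves. Zbp1 (10490150), a sensor of left-handed nucleic acid that can start cell death, had 9.55 and 9.34 in KO 1, 8.06 and 8.14 in KO 2, and 7.77, 7.91, 7.83 and 7.76 in WT. All KO-labelled arrays were above WT, with a difference of 1.63 in KO 1 against 0.28 in KO 2. Ddx58, which encodes the RNA sensor RIG-I, also had no overlap, at 1.10 in KO 1 and 0.43 in KO 2. Ifih1, which encodes the RNA sensor MDA5, differed by 0.70 in KO 1 and 0.10 in KO 2, and Dhx58, their regulator LGP2, by 0.12 and 0.05. Usp18 (10541307), which removes ISG15 from proteins and blocks IFNAR2 signalling, had 8.91 and 8.78 in KO 1, 7.80 and 7.94 in KO 2, and 7.40, 7.21, 7.48 and 7.47 in WT. Its arrays did not overlap between groups, and it was 0.97 higher (SE 0.29, limma adjusted p = 0.465), a value that did not pass.

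Parp9 (10435457), an ADP-ribosyltransferase family member, had the largest KO minus WT difference of the type I arm, just above Isg20 and Usp18. It had 8.76 and 8.72 in KO 1, 7.72 and 7.64 in KO 2, and 7.05, 7.51, 7.24 and 7.14 in WT. The group levels were 8.21 ± 0.61 and 7.23 ± 0.20 (SD, n = 4 each), with 0.98 between them (SE 0.32, limma adjusted p = 0.556). Parp14, of the same family, differed by 1.13 in KO 1 and 0.34 in KO 2. Isg20 (10554240), an RNA exonuclease, had 8.98 and 8.70 in KO 1, 7.93 and 8.18 in KO 2, and 7.61, 7.30, 7.48 and 7.53 in WT. It differed by 1.36 in KO 1 and 0.58 in KO 2, the largest KO 2 difference in its arm. Bst2 (10579532), or tetherin, which holds budding viruses at the cell surface, had 9.30 and 9.10 in KO 1, 8.69 and 8.72 in KO 2, and 8.55, 8.34, 8.38 and 8.42 in WT. The Bst2 arrays of both KO preparations were above all WT arrays, with a KO 2 difference of only 0.29 from the WT mean. Rtp4, an inducible chaperone, differed by 0.84 and 0.20.

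The OAS and MX genes, which make classical antiviral enzymes and effectors of the type I response, were not above WT in KO 1 as deposited. All 5 genes of the OAS family, whose active enzymes make the activator of RNase L, had KO 1 below WT as deposited (3 of 5 after each rescaling), with a median of -0.40 and a range of -0.57 to -0.01, and KO 2 at -0.01 to 0.33. Oas2 (10533198) had 6.32 and 6.67 in KO 1, 6.93 and 7.04 in KO 2, and 7.03, 6.84, 6.95 and 6.99 in WT. Oasl1 (10524631), which restrains the translation of Irf7, had 7.16 and 7.07 in KO 1, 7.67 and 7.69 in KO 2, and 7.76, 7.47, 7.67 and 7.83 in WT. Oasl2 (10524621) had 6.59 and 6.47 in KO 1, 6.80 and 7.05 in KO 2, and 7.04, 6.55, 6.99 and 7.14 in WT. In Oas2 and Oasl1 the KO 1 arrays were below all WT arrays, and KO 2 was within or beside the WT range. Mx1 (10441233), a dynamin-like GTPase against influenza, had 5.10 and 5.13 in KO 1, 5.20 and 5.24 in KO 2, and 5.21, 5.13, 5.10 and 5.21 in WT. Its 8 arrays lay close together, and the KO minus WT difference was 0.00 (SE 0.12). The means of Mx1 and Mx2 over all arrays, 5.17 and 5.42, were as low as those of the NK cell marker Ncr1 (5.17) and the B cell marker Ms4a1 (5.46). A level signal there cannot show that a gene did not respond. Mx2 (10437224) had 4.82 and 5.28 in KO 1, 5.46 and 5.60 in KO 2, and 5.77, 5.39, 5.44 and 5.63 in WT, with KO 1 below WT.

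For Oas1a, Oas3 and Mx1 the sign in KO 1 turned on how arrays were scaled. After quantile normalization, median centring or scaling to 1 common SD, 2 of 5 OAS genes and 1 of 2 MX genes had KO 1 above WT, against 0 of 5 and 0 of 2 as deposited. Oas2, Oasl1, Oasl2 and Mx2 kept KO 1 below WT under all 3, at -0.58 to -0.12. Many dim probe sets were low in KO 1: over the 9695 genes with a mean under log2 7 the median difference from WT was -0.33, over the 5077 genes at log2 8 or more it was 0.71. The 10 type I genes under log2 7 had a median of -0.18, the 6 at log2 8 or more 1.14, and the 6 IFN-gamma genes at log2 8 or more 1.88. The part of this level trend in the members' differences was not tested beyond the scalings given here.

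Within the Ifit cluster the 3 measured genes split. Ifit2, whose product binds RNA and restrains translation, differed by 0.64 in KO 1 and -0.09 in KO 2, with both KO 1 arrays above WT. Ifit3 differed by -0.35 and 0.04, with KO 1 below the narrow WT range. Ifit1, the family member that binds RNA lacking cap methylation, differed by -0.11 in KO 1 and 0.09 in KO 2, with KO 1 inside the WT range. Rsad2 (viperin, which makes a chain-terminating nucleotide) differed by -0.23 and 0.05, its genomic neighbour Cmpk2, a nucleotide kinase, by -0.12 and -0.03, and Xaf1, which promotes cell death, by 0.00 and 0.15. After quantile normalization Ifit1, Rsad2 and Cmpk2 were above WT in KO 1, at 0.19, 0.10 and 0.20. Oas1a and Oas3 differed by -0.01 and -0.03 in KO 1 and by 0.33 and 0.17 in KO 2.

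**Figure D3:**
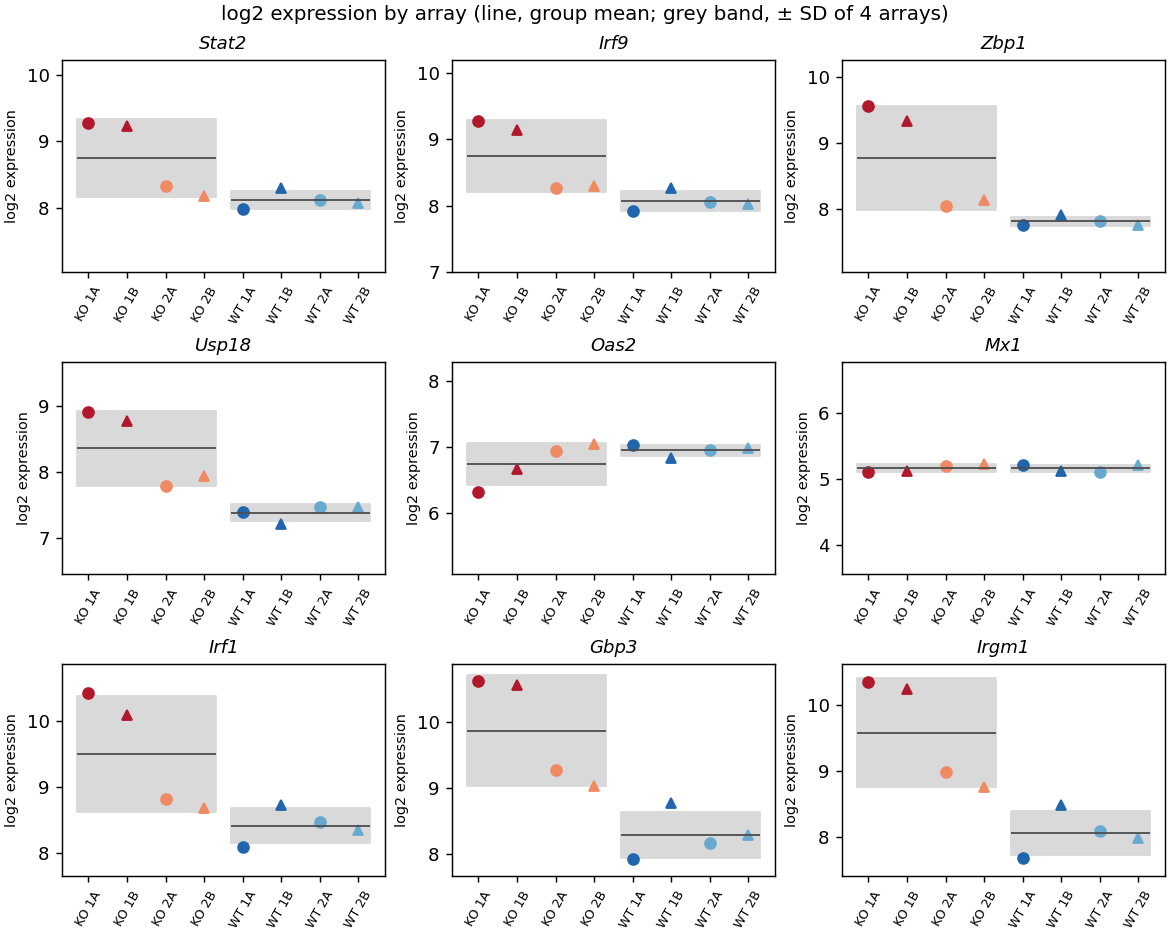
Each panel plots the log2 expression of 1 gene (vertical axis, 3.2 log2 units in each panel) on the 8 arrays (horizontal axis), with a line at the mean and a grey band of ± SD over the 4 arrays of a genotype. Gbp3, Irgm1, Irf1, Zbp1, Usp18, Stat2 and Irf9 are high in KO 1, with KO 2 near WT or between, while Oas2 is low in KO 1. Mx1 is level on all arrays, at a low mean of 5.17.

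The KO preparations were compared with each other in a limma model of the 4 preparation means, whose error is the spread between arrays A and B of a preparation. Of the 33 members 18 were higher in KO 1 than in KO 2, 5 were lower and 10 did not pass, where 27.7% of all genes were higher and 31% lower. In the IFN-gamma arm 6 of 7 were higher, in the type I arm 12 of 26, and the median KO 1 minus KO 2 difference was 1.43 and 0.09 log2, against -0.13 over all genes. Gbp4 differed most, by 1.69 (SE 0.21, limma adjusted p = 0.000412), then Irf1 by 1.498 (SE 0.22, adjusted p = 0.00101), Gbp5 by 1.45, Gbp3 by 1.43, Irgm1 by 1.42 and Zbp1 by 1.35 (SE 0.16, adjusted p = 0.00032). Parp9 differed by 1.06, Stat2 by 1.01 and Irf9 by 0.93. Nlrc5, Oasl1, Oas2, Mx2 and Ifit3 were the 5 lower genes. After quantile normalization 15 members were higher and 1 lower, against 13.5% and 5.24% of all genes. After median centring 19 were higher and 0 lower, against 37.1% and 8.3%. After scaling to 1 SD 17 were higher and 2 lower, against 23.3% and 15.8%. Without KO 1A 9 were higher and 0 lower, against 3.81% and 0.542% of all genes. Without KO 2A or KO 2B 0 were lower, against 12.8% and 2.84%, and without KO 1B 3, against 13.7%. Without WT 1A or WT 1B 8 were lower, against 41.2% of all genes in each fit.

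WT preparations 1 and 2 were compared in the same way. In the same limma model 0 of 33 members passed between them, with 0 at an unadjusted p under 0.05, where 0% of all genes passed. Arrays WT 1A and WT 1B lay 0.44 log2 apart (root mean square), against 0.19 for the KO 1 arrays, 0.17 for KO 2 and 0.23 for WT 2. The WT 1 mean averages over that spread, so this test cannot show that the WT arrays were alike. Without WT 1A, 1 member was higher, where 3.13% of all genes were higher and 2.12% lower. The WT spread nevertheless touched the IFN-gamma arm: its median difference from the WT mean was 0.32 on WT 1B and -0.24 on WT 1A. KO 2A at 0.44 and KO 2B at 0.28 lay on both sides of WT 1B, and the KO 1 arrays stood at 1.87 and 1.82. For the type I arm the arrays lay at 0.26 and 0.15 in KO 1, 0.12 and 0.15 in KO 2 and -0.08 to 0.05 in WT. In KO 2 both arrays were above all WT arrays for 10 of 33 members (Parp9, Parp14, Isg20, Usp18, Zbp1, Ddx58, Bst2, Ifit3, Gbp3 and Irgm1), against 9.54% of all genes, and below for 0 members, against 4.75%. In KO 1 this held for 19 members, against 34% of all genes, and 6 members were below all WT arrays, against 42.8%.

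**Figure D4:**
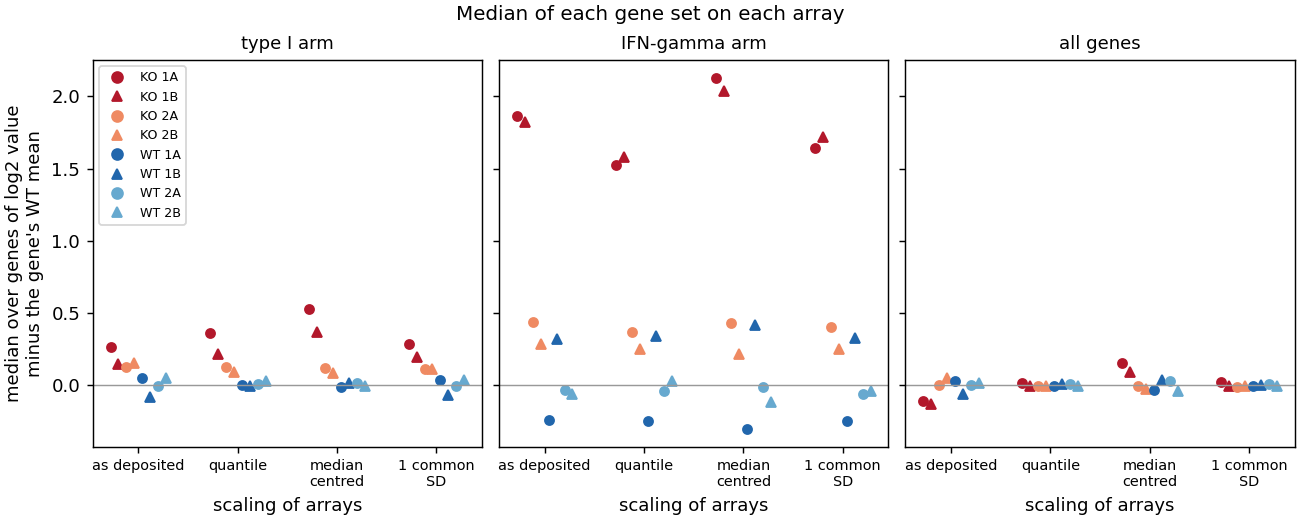
Each point is 1 array, with the vertical axis giving the median, over the genes of a set, of the log2 value minus the gene's WT mean, and the horizontal axis the scaling of the arrays, for the type I arm, the IFN-gamma arm and all genes. In the IFN-gamma arm the KO 1 arrays lie at 1.53 to 2.13 under all 4 scalings, above KO 2 and WT, whose arrays overlap.

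By size, 14 of 33 members were more than 1 log2 above WT in KO 1 (8 of 26 in the type I arm and 6 of 7 in the IFN-gamma arm), against 10.6% of all genes. In KO 2 this held for 0 members, against 0.351% of all genes, with Gbp3 at 0.86 and Irgm1 at 0.80 the nearest. At a mean of log2 8 or more, the KO 1 difference of all genes had a median of 0.71 and a 90th percentile of 1.33. Of members at that level, Stat2, Irf9, Parp14 and Ddx58 were within that percentile, at 1.14, 1.15, 1.13 and 1.10. Zbp1, Tap1, Irf1, Gbp4, Irgm1 and Gbp3 were past it. Each array's SD was widest in KO 1, and after scaling to 1 SD the IFN-gamma median was 1.65 in KO 1 and 0.32 in KO 2, and the type I median 0.23 and 0.10. The IFN-gamma median in KO 1 was 1.49 after quantile normalization and 2.08 after median centring.

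Receptors and ligands of the pathway were read from lists of genes outside the members. Of 10 measured ligands, receptors and kinases limma called 0, with 0 at an unadjusted p under 0.05. Ifng (10366586), the IFN-gamma gene itself, had log2 values of 7.12 and 6.71 in KO 1, 6.43 and 6.41 in KO 2, and 6.24, 6.37, 6.53 and 6.33 in WT. Both KO 1 arrays were above all WT arrays, with a difference of 0.55 from the WT mean, and KO 2 was within the WT range. Ifngr1, the ligand-binding chain of the IFN-gamma receptor, had 11.29 and 11.29 in KO 1, 10.53 and 10.51 in KO 2, and 9.70, 10.81, 10.21 and 10.45 in WT. Ifngr2, its signalling chain, had 9.69 and 9.75 in KO 1, 8.78 and 8.64 in KO 2, and 8.54, 8.89, 8.88 and 8.61 in WT. Both chains were about 1 log2 above the WT mean in KO 1. Both had a mean of log2 8 or more, a level at which the KO 1 difference of all genes had a median of 0.71 and a 90th percentile of 1.33. For the type I receptor the groups lay closer. Ifnar1 had 9.14 and 9.15 in KO 1, 8.53 and 8.54 in KO 2, and 8.38, 9.46, 9.02 and 8.74 in WT. Ifnar2 had 9.32 and 9.23 in KO 1, 8.50 and 8.54 in KO 2, and 8.45, 9.35, 8.85 and 8.50 in WT. In both genes WT 1B was above both KO 1 arrays, and the KO minus WT differences of -0.06 and 0.11 changed sign after rescaling, Ifnar1 to 0.0441 with median centring and Ifnar2 to -0.18 with quantile normalization. Ifnb1 differed by -0.14 in KO 1 and -0.01 in KO 2, and Ifna4 by -0.28 and 0.06.

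All 9 measured regulators of interferon signalling were above the WT mean in KO 1, where 42.7% of all genes were, with a median of 0.84, against 0.01 in KO 2. Of these 9 genes 6 had a mean of log2 8 or more, a level at which the median of all genes in KO 1 was 0.71. For KO minus WT 0 passed, and 2 were higher by the unadjusted p, against 5.65% of all genes. These were Irf8, at 1.70 in KO 1 and 0.49 in KO 2, and Irf5, at 0.68 and 0.44, named here after their values were seen. Both had all KO arrays above all WT arrays, as 6.67% of all genes did. Socs1 (10437668), the feedback inhibitor of JAK kinases that IFN-gamma induces, had 8.83 and 8.79 in KO 1, 7.16 and 7.44 in KO 2, and 7.33, 7.35, 7.32 and 7.33 in WT. KO 1 stood 1.48 above WT and KO 2 at -0.03, so the elevation was in 1 preparation. Its KO 1 minus KO 2 difference was 1.51 (SE 0.16, limma adjusted p = 0.000149). Of 6 nucleic acid sensing genes limma called 0, with 0 at an unadjusted p under 0.05, and the list median was 0.04 in KO 1 and 0.02 in KO 2.

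The MHC class I pathway, which IFN-gamma raises through IRF1 and NLRC5, lay above WT in both preparations for all 9 measured genes, by a median of 1.23 in KO 1 and 0.34 in KO 2. All 9 had a mean of log2 8 or more, where the median of all genes was 0.71 in KO 1 and 0.05 in KO 2. By limma 0 of them passed, and 5 were higher by the unadjusted p at 0.05, against 5.65% of all genes. Among 29 other interferon-induced genes 0 passed and 5 were higher by the unadjusted p, against the same 5.65%, and the median was 0.63 in KO 1 and 0.15 in KO 2. The 3 genes of these lists past 1 log2 in KO 2 were Gbp7, Eif2ak2 and Iigp1, named here after their values were seen. Gbp7, a further guanylate-binding protein, had 11.04 and 11.07 in KO 1, 9.96 and 9.72 in KO 2, and 8.04, 8.80, 8.40 and 8.47 in WT. Its difference of 2.02 (SE 0.40) had a limma adjusted p of 0.0943, the lowest of the 70 genes in these lists. Eif2ak2, the RNA-activated kinase PKR, differed by 2.07 in KO 1 and 1.10 in KO 2, and Iigp1, an immunity-related GTPase, by 3.503 and 1.01. Of 7 measured chemokines and other targets limma called 0, with 0 at an unadjusted p under 0.05. As deposited 6 of them were below WT in KO 1, where 57.3% of all genes were, with a median of -0.34, against 0.01 in KO 2. Of the 7 genes 5 had a mean under log2 7, a level at which the median of all genes in KO 1 was -0.33. Cxcl9 and Cxcl10, ligands of CXCR3, were at -0.53 and -0.20 in KO 1.

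**Figure D5:**
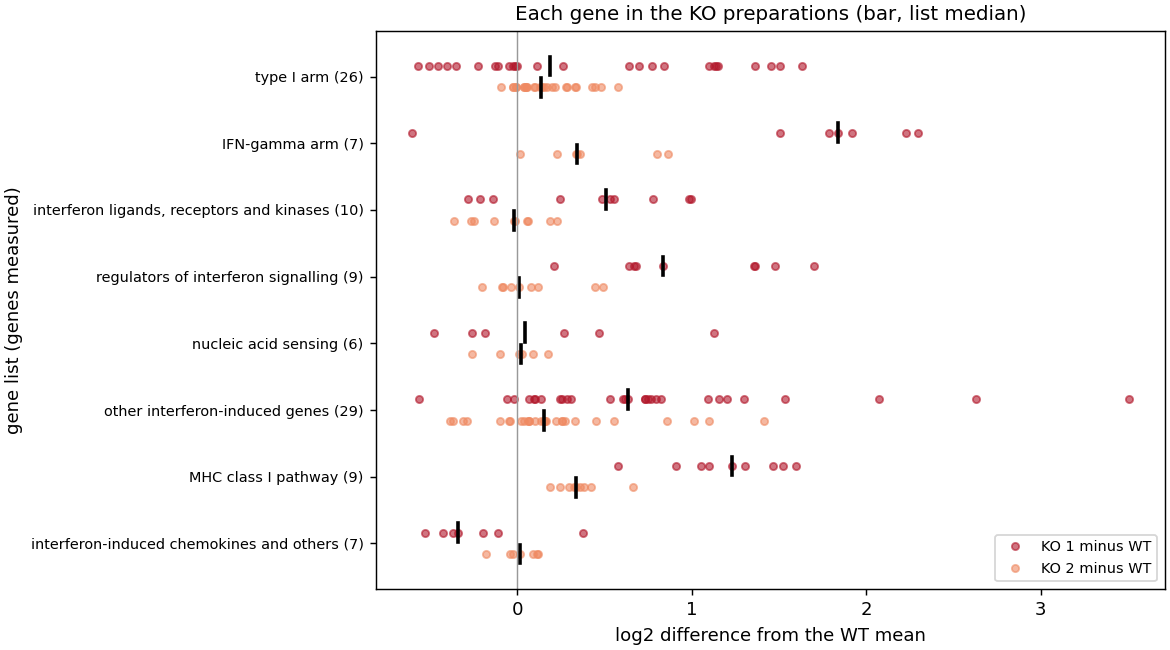
Each point is 1 gene, with its log2 difference from the WT mean on the horizontal axis and the gene list on the vertical axis, for KO 1 (dark red) and KO 2 (orange); black bars are list medians and the number of measured genes follows each name. The IFN-gamma arm and the MHC class I pathway have the highest KO 1 medians, 1.84 and 1.23, and the chemokine list the lowest, -0.34.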

How the data were processed

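RNA of 8 samples was hybridised to Affymetrix whole-transcript arrays, from 100 ng of total RNA each per the labels' protocols. The deposited values are on a log2 scale, and the submitters' processing notes name RMA and Partek, with no version, order or further setting given. Arrays report no read depth, so their number limits the precision. Of 28768 probe sets, 21771 had 1 symbol, 1557 several and 5440 none in the platform annotation; 999 of the 19937 genes had several probe sets. The deposited values were fitted without a filter in limma 3.58.1 (R 4.3.3), with a variance trend, two-sided tests and Benjamini-Hochberg adjustment over all genes at 0.05. KO minus WT had the preparation as a random block (correlation 0.617), and KO 1 minus KO 2 and WT 1 minus WT 2 came from a model of 4 preparation means. The code was tested on simulated data.

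The members and gene lists were chosen with earlier results of these data known. Named with every array's value are members passing the test, the 4 highest and 4 lowest KO minus WT differences of each arm, those of highest and lowest mean level in each arm, Stat2, Irf9, Irf7 and Irf1, and, outside the members, list genes that passed, Ifnar1, Ifnar2, Ifngr1, Ifngr2, Ifng, Socs1 and Bcl6. Promoters and their start sites are RefSeq's on GRCm38.p6, matched by symbol. Alternatives were other scalings, blocks, variance settings, a filter at a mean of log2 6, other rules for several probe sets, and leaving out arrays or preparations.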

Additional observations from a re-analysis of the deposited data

Results flagged for a closer look

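The KO preparations differed from each other beyond the spread between arrays A and B of a preparation, by limma's test of KO 1 minus KO 2, for 22 of the genes given with every array's value. In the IFN-gamma arm the log2 difference was positive for Gbp4 by 1.69, Irf1 by 1.498, Gbp5 by 1.45, Gbp3 by 1.43, Irgm1 by 1.42 and Tap1 by 1.15, and negative for Nlrc5 at -0.62. In the type I arm KO 1 was higher for Zbp1 by 1.35, Parp9 by 1.06, Stat2 by 1.01, Usp18 by 0.98, Irf9 by 0.93, Isg20 by 0.78 and Bst2 by 0.49. The difference was negative for Oasl1 at -0.57, Oas2 at -0.49 and Mx2 at -0.48. Outside the members KO 1 was higher for Socs1 by 1.51, Ifngr2 by 1.01, Ifngr1 by 0.77, Ifnar2 by 0.75 and Ifng by 0.50. Of all genes 27.7% were higher and 31% lower in KO 1 than in KO 2, the KO 1 arrays had the widest SDs of all arrays, and the part of this spread in the members' differences was not tested beyond the scalings given.

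The Gbp4 value of WT 1B, 8.41 log2, stood apart from the other 3 WT arrays. It was the 1 such array among 52 groups of 4 arrays tested over 26 genes, where chance gives about 1 in 20.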

How the results depend on the processing

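The labels do not say whether numbers and letters pair KO with WT arrays. Deviations of same-labelled KO and WT arrays correlated at -0.69, 0.77, -0.42 and 0.68. Those of differently labelled arrays correlated at -0.77 to 0.76, as strongly in both directions, so these values cannot decide whether arrays were paired. With the preparation number as a replicate block, limma called 7 members and 9 pathway genes higher for KO minus WT, and 620 genes higher and 57 lower of all, against 24 and 3 as reported. With number and letter as a replicate block it called 0 members and 3 pathway genes higher, and 98 and 15 of all genes. The count of members higher, 0 as reported, was 5 with the array SD as a covariate (3.31% of all genes), 13 without preparation KO 1 (5.64%) and 19 without KO 2 (36.3%), the last 2 being fits whose within-preparation correlation was negative (-0.63 and -0.64). With no random block, chosen after seeing the data, it was 0 and 18 (0.642% and 30.1%). Members lower were 7 without KO 2 (48.5% of all genes) and 6 with no random block (37%). The other alternatives, leaving out single arrays among them, called 0 members.

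Pathway genes higher, 0 as reported, were 3 with all arrays taken as independent (0.461% of all genes) and 2 with preparation means (0.226%). They were 3 after quantile normalization (0.607%), 1 at a common SD (0.271%) and 8 with the array SD as a covariate (3.31%). Without KO 1 they were 11 (5.64%) and without KO 2 49 (36.3%), and with no random block 4 (0.642%) and 41 (30.1%). With an array left out they were 0 to 2 (0.0652% to 0.256%). Pathway genes lower were 3 with the SD covariate (1.86% of all genes), 9 without KO 2 (48.5%) and 7 with no random block (37%). For KO 1 minus KO 2, leaving out an array gave 9 to 18 members higher and 0 to 8 lower. Over all genes these fits called 3.81% to 33.9% higher and 0.542% to 41.2% lower. Lower members were 1 after quantile normalization (5.24% of all genes), 0 after median centring (8.3%), 2 at a common SD (15.8%) and 3 with the filter (30.9%). Between WT preparations leaving out an array gave 0 to 1 member higher, where 0% to 3.13% of all genes were higher and 0% to 2.12% lower.

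The type I median for KO minus WT was 0.28 after median centring, 0.34 with the filter, which tests fewer genes, and 0.11 to 0.23 with an array left out. In KO 1 it was 0.26 after quantile normalization, 0.43 after median centring and 0.15 to 0.26 with an array left out, and the IFN-gamma median 1.49 and 2.08 after these scalings. The stricter GAS-like letters were in 2 promoters in place of 6.

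The KO minus WT difference changed sign 35 times over 10 genes, 0 of them past the test. Without KO 1, with and without the random block, it was 0.017 for Nlrc5, 0.039 for Oas2, -0.27 for Ifnar2, -0.021 for Ifngr2 and -0.033 for Socs1. Without KO 2, likewise, it was -0.047 for Mx1 and 0.25 for Ifnar1. Without preparation WT 2 it was -0.0006 for Mx1 and -0.0037 for Ifnar2. With the SD covariate it was 0.033 for Mx2, 0.072 for Nlrc5, 0.062 for Oas2, 0.026 for Oasl1, 0.073 for Oasl2, -0.40 for Ifnar2 and -0.041 for Ifngr2. Nlrc5 was at 0.55 with the mean of its probe sets and 1.14 with that of largest variance. Ifnar1 was at 0.0441 after median centring and 0.0444 with array weights, and Ifnar2 at -0.18 after quantile normalization and -0.037 at a common SD. With an array left out Mx1 ranged from -0.020 to 0.029, Ifnar1 from -0.32 to 0.20 and Ifnar2 from -0.10 to 0.33. The cause of these changes was not tested.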
